A study of Mus musculus with 4 samples.

Results

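The plasminogen activator system was followed through 5 genes: the urokinase receptor Plaur, the activators Plau and Plat, and the activator inhibitors Serpine2 and Serpini1. They were taken by symbol from a list of 55403 features, and they were picked because of their own unique molecular identifier (UMI) counts by cell class and library in these data. Their levels and differences are therefore described with counting intervals or standard errors and are given no test. Of the 5 genes, Plaur rested on 218 UMIs in all nuclei kept, Plau on 236, Plat on 2965, Serpini1 on 7698 and Serpine2 on 12069.

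The data are single-nucleus RNA libraries (10x Genomics 3′ chemistry) made from pooled frozen mouse hippocampus, with 1 library from wild-type mice (WT), 2 from PS19 mice and 1 from PS19 mice that also carry a SORLA transgene (TG_PS19). PS19 mice, on a mixed B6;C3 background, express human 1N4R tau with the P301S mutation from the Prnp (prion protein) promoter, and the SORLA transgene sits at Rosa26 under a CMV/β-actin promoter element. SORLA is a sorting receptor encoded by SORL1. The lines were crossed and littermates were used; ages and the number of animals per pool are not given in the labels. Nothing in the labels says that the PS19 libraries came from separate animals. The p-values below take their spread from those 2 libraries only, which may be technical, with 1 residual degree of freedom. The fit shares that spread across the genes of a class, so a p-value does not measure the replicate spread of its gene alone.

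Plasminogen activators are serine proteases that cut the zymogen plasminogen into plasmin, which degrades fibrin and matrix proteins. Urokinase (uPA, from Plau) is held at the cell surface by the lipid-anchored receptor uPAR (from Plaur), whereas tissue activator (tPA, from Plat) is the form best known from vessels and neurons, where it also acts on NMDA receptors and on BDNF processing. Serpins trap the activators, and the complexes are taken up by receptors of the LDL receptor family such as Lrp1.

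Libraries are named in the order WT, PS19 replicate 1, PS19 replicate 2 and TG_PS19 throughout. They held 48670533, 20064025, 26198644 and 38971002 UMIs, and 11458, 4467, 4728 and 8963 nuclei were kept. Human MAPT transcripts were counted 0, 330, 462 and 440 times and human SORL1 transcripts 2, 7, 0 and 2216 times, in the direction of the labels. The TG_PS19 library held nuclei of both sexes (50.9% with Xist only, 24.1% with Y-linked genes only), whereas at most 0.244% of nuclei in any other library had Xist only, so sex and the SORLA transgene cannot be told apart in whole libraries. A WT cluster of 282 nuclei had none from other libraries, and nuclei in no named class made up 3.82%, 0.828%, 0.973% and 7.53% of the libraries. Between 5 and 32 barcodes were shared by any pair of libraries. Nuclei were grouped into 12 classes by markers. Levels are counts scaled to 1000000 UMIs of the class in that library (CPM), with exact Poisson 95% intervals that cover counting error only.

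**Figure D1:**
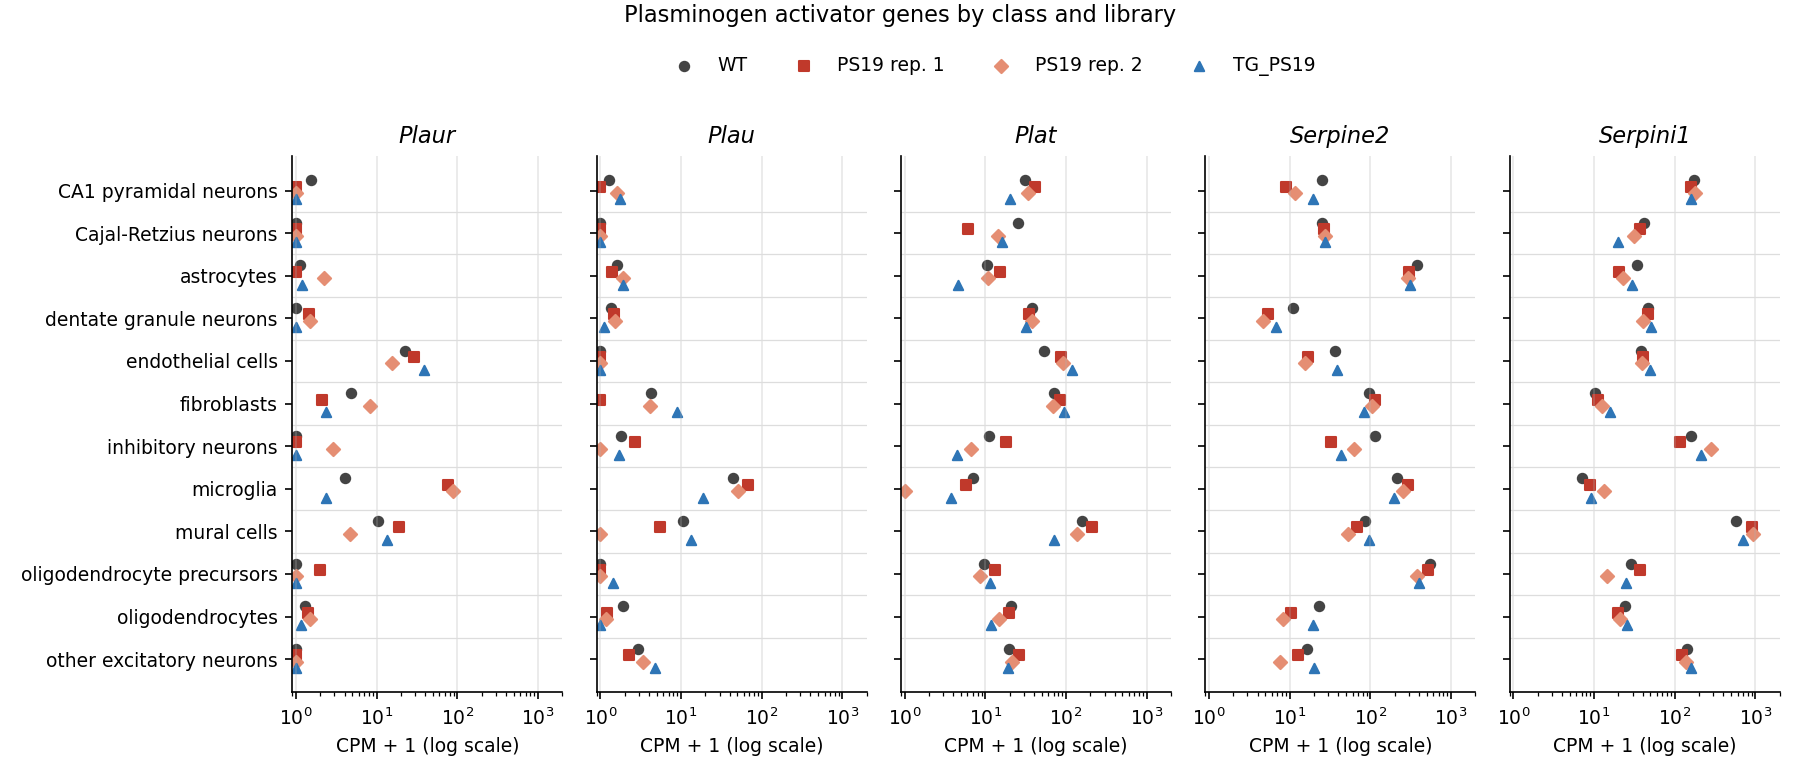
Level of each of the 5 genes in 12 cell classes (rows of each panel) in 4 libraries, plotted as CPM + 1 on a log axis, where each point is 1 library. Plaur is highest in the microglia of the PS19 libraries and Plau in microglia, Plat is highest in vascular cells, Serpine2 in oligodendrocyte precursors and astrocytes, and Serpini1 in mural cells and neurons.

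Plaur (chr7:24462484-24475968, plus strand, GRCm38) is the receptor of the system. Its promoter, taken from the RefSeq promoter table for GRCm38.p6 (chr7:24462233-24462482, plus strand), is shown because transcript counts of this gene set the libraries apart more than those of the other members. Capitals mark matches to the letters of AP-1, PU.1 and SP1, searched on both strands.

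Plaur promoter: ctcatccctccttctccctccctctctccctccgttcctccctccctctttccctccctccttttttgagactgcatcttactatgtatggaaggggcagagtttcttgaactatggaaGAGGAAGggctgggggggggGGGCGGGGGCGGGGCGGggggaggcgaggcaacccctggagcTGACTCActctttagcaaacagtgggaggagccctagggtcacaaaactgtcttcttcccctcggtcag

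An AP-1 match (TGANTCA) began at −69 from the start site and a PU.1 match (GAGGAAG) at −131, and the G-rich run between them held 3 SP1 matches (GGGCGG). Among 32851 RefSeq promoters, read as 300-base windows, AP-1 letters occurred in 7.81%, PU.1 letters in 13.6% and SP1 letters in 35.7%. The same search for ETS letters (GGAA, present in 96.0% of promoters) had matches too, which are left in lower case, and letters of NF-kB (GGGANTTCC), CRE (TGACGTCA) and the E-box (CACGTG) had none, which says only that they are not in this window. GAGGAAG contains the ETS letters. A match describes letters and no binding was measured. AP-1 and PU.1 are transcription factors of activated cells and of myeloid cells, respectively. RefSeq promoter entries were matched for 3 of the 5 genes. The Serpine2 window held 6 SP1 matches, and the Serpini1 window held 1 PU.1 match.

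In microglia, Plaur was close to 0 in the WT and TG_PS19 libraries and present in both PS19 libraries. It was counted 3 times among 587 WT microglial nuclei, 48 times among 254 and 70 times among 284 in the PS19 replicates, and 1 time among 410 TG_PS19 nuclei. These counts gave 3.01 CPM (0.622 to 8.81) in WT, 76.1 CPM (56.1 to 101) and 86.7 CPM (67.6 to 109) in PS19, and 1.38 CPM (0.0350 to 7.70) in TG_PS19. The intervals of the PS19 libraries lay far above those of the other libraries and overlapped each other, and the WT and TG_PS19 intervals overlapped. Per UMI, Plaur was 27.2 times as frequent in PS19 as in WT (interval 9.09 to 134), and TG_PS19 stood at 0.0169 of PS19 (0.000423 to 0.0957) and at 0.459 of WT (0.00874 to 5.71). The last interval spans 1, so a difference between TG_PS19 and WT was not detectable at this depth. On the log2 scale the fitted difference was 4.69 (SE 0.51) for PS19 minus WT and −5.65 (SE 0.67) for TG_PS19 minus PS19. Both differences use the same PS19 libraries. Each SE here and below is the size of the difference divided by the square root of the F statistic of the fit. It is thus not the spread of that gene between replicates.

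**Figure D2:**
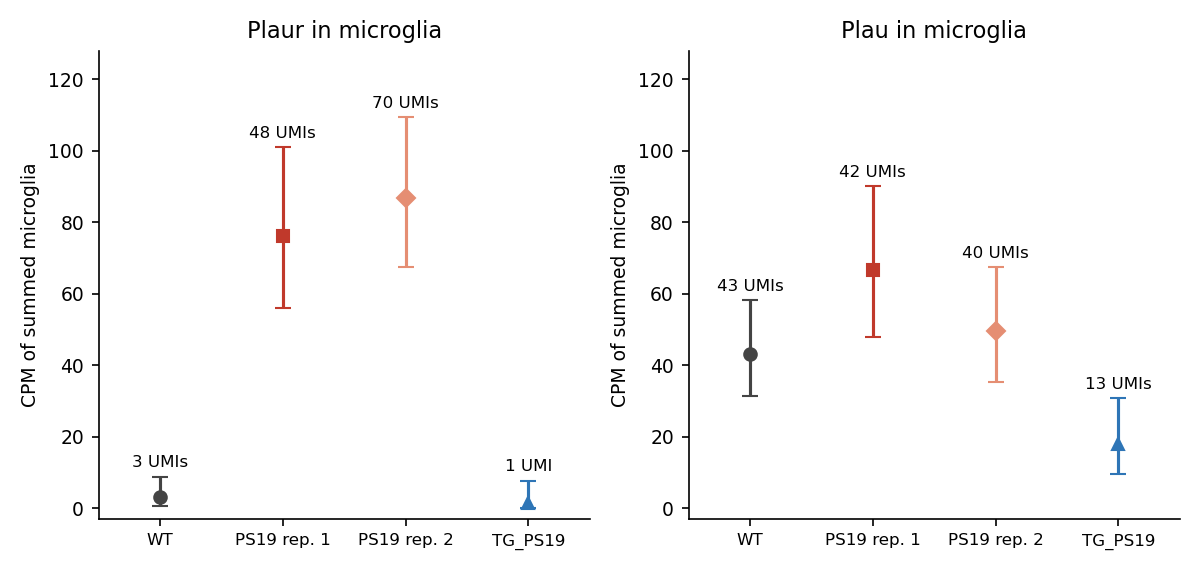
Plaur (receptor) and Plau (its ligand uPA) in microglia as CPM in each of 4 libraries, where points are levels, lines are exact Poisson 95% intervals and labels give the UMIs counted. Plaur is above 70 CPM in the PS19 libraries only, whereas Plau is present in all 4 libraries and lowest in TG_PS19.

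The receptor transcript sat in a minority of PS19 microglia. At least 1 Plaur UMI was found in 3 WT nuclei (0.511%), in 33 (12.99%, exact Clopper-Pearson interval 9.11 to 17.8) and 43 (15.1%, 11.2 to 19.8) PS19 nuclei, and in 1 TG_PS19 nucleus (0.244%). Oligodendrocytes, read as the background for free RNA, had shares of 0.0612%, 0.109%, 0.160% and 0.0333%. Median depth in microglia was 1606, 2218.5, 2603 and 1642.5 UMIs and in oligodendrocytes 1937, 2428, 3033 and 1999.5 UMIs. With every nucleus thinned to 1000 UMIs, a Plaur UMI remained in 1 of 558 WT nuclei (0.179%), in 15 of 253 (5.93%) and 21 of 283 (7.42%) for the PS19 replicates, and in 0 of 394 for TG_PS19, with 29, 1, 1 and 16 shallower nuclei left out. The order of the libraries was thus the same at equal depth. A single nucleus held up to 5 and 8 Plaur UMIs in the PS19 replicates and no more than 1 in the other libraries.

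Microglia fell into a pair of clusters, which were made from the same counts, and Plaur was confined to 1 of them apart from a single WT nucleus. The cluster led by Siglech, Selplg and Csf1r held 553, 46, 52 and 389 nuclei, with a Plaur UMI in 1, 0, 0 and 0. The cluster led by Ly86, Fyb, Inpp5d and Runx1 held 34, 208, 232 and 21 nuclei, which is 5.79%, 81.9%, 81.7% and 5.12% of microglia. Within this second cluster the share of nuclei with a Plaur UMI was 5.88% (0.720 to 19.7), 15.9% (11.2 to 21.6), 18.5% (13.8 to 24.1) and 4.76% (0.120 to 23.8). The WT and TG_PS19 values rest on 2 of 34 and 1 of 21 nuclei, and their intervals overlap those of PS19. Fitted over whole microglia, the Plaur difference therefore joins a difference in cluster makeup with any difference inside the cluster; in the same cluster Plaur stood at 30.8, 90.0, 104 and 25.6 CPM. Sums over the whole class do not separate these parts. The makeup was counted above, whereas any difference inside the Ly86 cluster rests on few WT and TG_PS19 nuclei and was not tested.

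**Figure D3:**
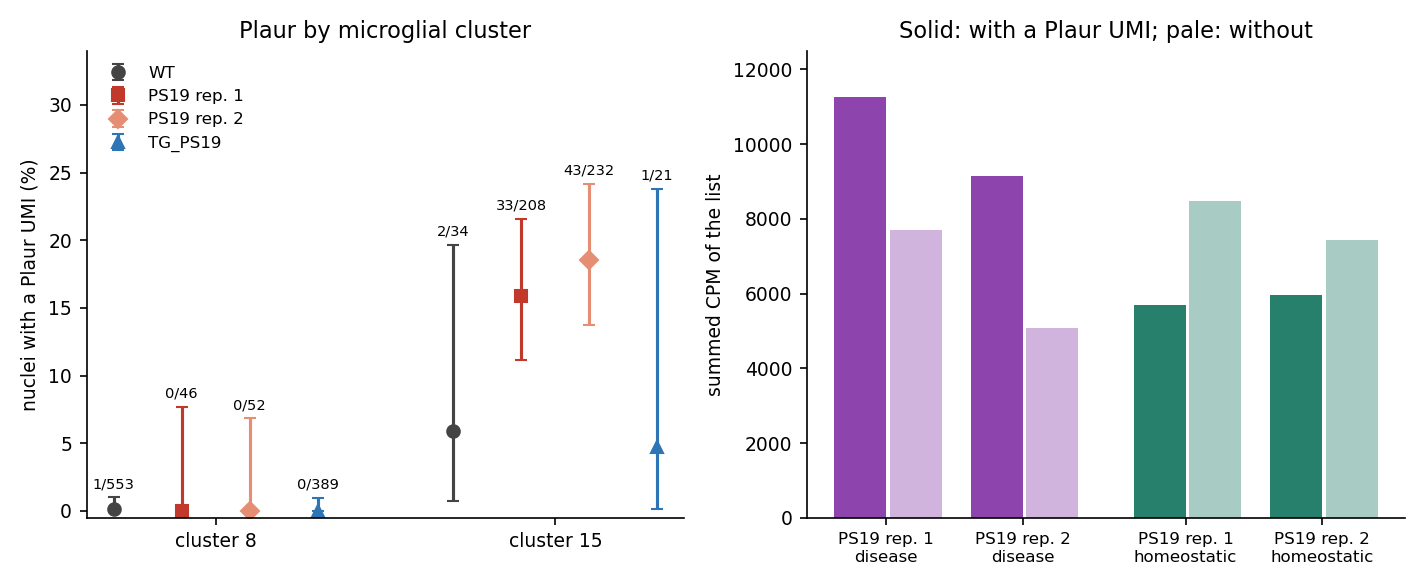
Left, percentage of microglial nuclei with a Plaur UMI in the Siglech cluster (cluster 8) and the Ly86 cluster (cluster 15) by library, with exact Clopper-Pearson 95% intervals and the counts above them. Right, summed CPM of a disease-associated and a homeostatic gene list in PS19 microglia with a Plaur UMI (solid bars) and without (pale bars), showing the disease-associated list higher and the homeostatic list lower in Plaur nuclei of both replicates.

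Nuclei with a Plaur UMI were set beside the other PS19 microglia. A list of 18 disease-associated microglial genes summed to 11252 CPM in Plaur nuclei and 7699 CPM in the rest of PS19 replicate 1, and to 9156 and 5080 CPM in replicate 2. A homeostatic list summed to 5691 against 8475 CPM and to 5964 against 7434 CPM. All 33 and 43 Plaur nuclei were in the Ly86 cluster, against 175 of 221 and 189 of 241 of the rest, so cluster and Plaur UMI cannot be told apart in these sums. Plaur nuclei were deeper, at medians of 2651 and 2970 UMIs against 2190 and 2556, and the part of depth in these differences was not tested. Over whole libraries the disease-associated list stood at 4026, 8218, 5790 and 3089 CPM in microglia and the homeostatic list at 11085, 8069, 7178 and 9778 CPM. Markers of other myeloid and lymphoid cells (16 genes) summed to 348, 653, 640 and 418 CPM in microglia, mostly from Csf3r (304, 380, 477 and 285 UMIs). S100a8, S100a9, Ly6g, Retnlg, Cd163, Lyve1 and Cd3e had 0 UMIs in microglia of every library, and Ms4a7 had 0, 17, 22 and 0. Whether blood-derived cells add to the PS19 values was not tested beyond these counts.

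Outside microglia, Plaur was counted most in endothelial cells in every library but PS19 replicate 2, where fibroblasts had the most. Endothelial cells held 12, 7, 5 and 14 UMIs, or 21.1, 27.6, 14.5 and 37.5 CPM, and the libraries overlapped (log2 difference PS19 minus WT −0.02, SE 0.83, and TG_PS19 minus PS19 0.90, SE 0.82). The arterial-gene cluster led by Eln, Bmx, Mgp and Vegfc had 38.8 CPM (18.6 to 71.4) and the main endothelial cluster 21.9 CPM (14.5 to 31.6), with overlapping intervals. Mural cells held 4, 4, 1 and 3 UMIs and fibroblasts 7, 1, 7 and 1. Astrocytes held 1, 0, 4 and 1, dentate granule neurons 0, 2, 3 and 0, and oligodendrocytes 2, 2, 3 and 1. Unnamed nuclei of PS19 replicate 2 held 4, of which 2 were in a cluster of 48 nuclei led by Mrc1, Cd74 and F13a1 where the other libraries had no Plaur UMI. Other excitatory neurons and Cajal-Retzius neurons had no Plaur UMI. Microglia thus held 73.8% and 69.3% of all Plaur UMIs in the PS19 libraries, whereas endothelial cells held the largest class share in WT (38.7%) and TG_PS19 (66.7%). A cluster of 732 nuclei that was left unnamed (71, 5, 3 and 653 by library) held 0 Plaur UMIs. It was led by Ttr, Dynlt1a and Xist, had a median of 1000.5 UMIs and had 2 of 8 microglial markers raised. Within the TG_PS19 microglia, 233 nuclei with Xist only held the single Plaur UMI and 79 nuclei with Y-linked genes only held 0, a count that allows up to 20.7 CPM.

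The genes whose microglial level moved across the 4 libraries most like Plaur were Clec7a, Ifi207, Cybb, Cd74, Rai14, Fam20c, Oasl2, Gm42836, Ccl3 and Lilrb4a, ranked by the distance between log2 levels among 8453 genes. The distance ran from 0.595 for Clec7a to 1.60 for Lilrb4a. Clec7a, a pattern-recognition receptor raised in disease-associated microglia, had 4, 76, 132 and 3 UMIs. Cybb, the catalytic subunit of the phagocyte NADPH oxidase, had 3, 25, 36 and 0. Cd74, the MHC class II invariant chain, had 23, 190, 165 and 4, and the chemokine Ccl3 had 8, 48, 52 and 2. All of these were high in both PS19 libraries and low in the other libraries, which is what the ranking selects. Of the 10 genes, 7 had a RefSeq promoter entry; AP-1 letters were in 1 (Cybb), SP1 letters in 1 (Fam20c) and PU.1 letters in 0.

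Plau (chr14:20836660-20843385, plus strand), the urokinase ligand of the receptor, was counted 43, 42, 40 and 13 times in microglia. Its level was 43.2 CPM (31.3 to 58.2), 66.6 CPM (48.0 to 90.0), 49.5 CPM (35.4 to 67.4) and 18.0 CPM (9.57 to 30.7). The WT and PS19 intervals overlapped, and the TG_PS19 interval lay below all 3 of them. The log2 difference was 0.40 (SE 0.31) for PS19 minus WT, −1.58 (SE 0.41) for TG_PS19 minus PS19 and −1.18 (SE 0.46) for TG_PS19 minus WT. As UMI ratios these are 1.32 (0.902 to 1.96), 0.315 (0.161 to 0.570) and 0.416 (0.205 to 0.788).

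Unlike the receptor, Plau was counted in both microglial clusters. It stood at 43.0, 72.1, 0 and 17.5 CPM in the Siglech cluster (40, 7, 0 and 12 UMIs) and at 46.3, 65.6, 59.5 and 25.6 CPM in the Ly86 cluster (3, 35, 40 and 1 UMIs). The clusters did not differ in the same direction in every library, and TG_PS19 had the lowest level in the Ly86 cluster, on 1 UMI. It was found in 31, 28, 21 and 12 microglial nuclei (5.28%, 11.0%, 7.39% and 2.93%). Receptor and ligand were counted together in 4 of the 33 and 8 of the 43 Plaur nuclei of the PS19 replicates and in 0 nuclei of the other libraries. By comparison, 28 of 254 and 21 of 284 PS19 microglia as a whole had a Plau UMI. Endothelial cells, which carried the receptor, had 0 Plau UMIs among 371, 133, 153 and 239 nuclei. Microglia held 55.1%, 80.8% and 71.4% of Plau UMIs in WT and PS19 but 26.0% in TG_PS19, where other excitatory neurons held 28.0% (14 UMIs). Within TG_PS19 microglia, Plau stood at 26.4 CPM (11 UMIs, 13.2 to 47.3) in nuclei with Xist only and at 6.89 CPM (1 UMI, 0.174 to 38.4) in nuclei with Y-linked genes only, and these intervals overlapped.

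Plat (chr8:22757727-22782844, plus strand), which encodes tissue activator, had its highest levels in mural cells, endothelial cells and fibroblasts, followed by dentate granule neurons. In mural cells it was counted 67, 47, 37 and 17 times, at 158, 209, 135 and 70.6 CPM. TG_PS19 was the lowest library, with an interval of 41.2 to 113 CPM, and WT lay between the PS19 libraries. The log2 difference was 0.11 (SE 0.31) for PS19 minus WT and −1.19 (SE 0.41) for TG_PS19 minus PS19. In the neighbouring endothelial cells the order of the libraries was another one, with 30, 22, 31 and 44 UMIs and 52.8, 86.8, 90.2 and 118 CPM. WT was the lowest library there and TG_PS19 the highest, with log2 differences of 0.78 (SE 0.40) and 0.44 (SE 0.38). Fibroblasts stood at 69.4, 83.5, 68.5 and 94.5 CPM.

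Plat in neurons depended on the class. Dentate granule neurons, the class with 36.0%, 27.3%, 36.6% and 37.6% of all Plat UMIs, stood at 37.2, 34.2, 36.3 and 30.8 CPM. CA1 pyramidal neurons stood at 29.9, 39.9, 33.0 and 19.3 CPM, with TG_PS19 lowest (log2 TG_PS19 minus PS19 −0.78, SE 0.27). Inhibitory neurons ranged from 3.48 to 17.3 CPM and Cajal-Retzius neurons from 5.13 to 24.2 CPM, on 5 to 13 and 1 to 9 UMIs per library. Astrocytes were at 9.49, 14.3, 9.88 and 3.55 CPM, again with TG_PS19 lowest (−1.55, SE 0.40). Oligodendrocytes were at 19.7, 18.4, 13.95 and 10.6 CPM, highest in WT and lowest in TG_PS19, and their log2 difference was −0.25 (SE 0.21) for PS19 minus WT and −0.54 (SE 0.24) for TG_PS19 minus PS19. Without PS19 replicate 2 the first of these was −0.05. Microglia, which carried the receptor, were at 6.03, 4.76, 0 and 2.77 CPM of Plat. By mean level the classes ran from mural cells (143 CPM) through endothelial cells (87.0) and fibroblasts (79.0) to dentate granule (34.6) and CA1 neurons (30.5). Neighbours in this order overlapped between libraries, except that every fibroblast library lay above every dentate granule library.

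Serpine2 (chr1:79794197-79861180, minus strand) encodes protease nexin-1, a secreted inhibitor of urokinase, tissue activator, plasmin and thrombin. It was highest in oligodendrocyte precursors, with 714, 518, 504 and 921 UMIs and 553, 522, 382 and 404 CPM. The PS19 replicates, the second and the lowest library, spanned most of that range, and the log2 differences were −0.26 (SE 0.16) and −0.07 (SE 0.16). Astrocytes were the next class, at 378, 302, 291 and 312 CPM from 3106, 737, 971 and 1669 UMIs. WT was the highest library and the PS19 libraries the lowest, with log2 differences of −0.38 (SE 0.13) for PS19 minus WT and 0.26 (SE 0.14) for TG_PS19 minus PS19. With library totals in place of TMM scaling the second difference was 0.0759.

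The makeup of the astrocyte class also differed between libraries. The main astrocyte cluster had 409, 356, 352 and 324 CPM of Serpine2, and the cluster led by Myoc, Gfap, Aqp4 and Id3 had 297, 250, 233 and 295 CPM. The Gfap cluster held 13.7%, 39.3%, 38.9% and 13.4% of astrocytes, so that TG_PS19 had the makeup of WT. Its Serpine2 level over the whole class was nearer to PS19 in CPM, but nearer to WT by the TMM-scaled differences given above. Within each of these clusters WT was still above both PS19 libraries in CPM, whereas TG_PS19 was the lowest library in the main cluster and close to WT in the Gfap cluster. These cluster levels carry no TMM scaling. Library totals shifted the median of all astrocyte genes by −0.18 for TG_PS19 against PS19 and by −0.15 against WT. The place of TG_PS19 within a cluster thus depends on the scaling.

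Microglia also carried the inhibitor, at 213, 293, 255 and 198 CPM, with both PS19 libraries above the others (log2 0.35, SE 0.18, and −0.38, SE 0.19). Astrocyte markers summed to 788, 581, 463 and 779 CPM in microglia, with the PS19 libraries the lowest. By mean level oligodendrocyte precursors (465 CPM) lay above astrocytes (321), microglia (240), fibroblasts (97.9) and mural cells (74.6), and every precursor library lay above every astrocyte library.

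In several classes with less Serpine2 the PS19 libraries were the lowest. Oligodendrocytes stood at 21.9, 9.42, 7.31 and 18.4 CPM (log2 −1.36, SE 0.23, for PS19 minus WT and 1.21, SE 0.24, for TG_PS19 minus PS19). CA1 neurons stood at 24.5, 7.98, 10.6 and 18.2 CPM (−1.46, SE 0.32, and 1.08, SE 0.36). Dentate granule neurons stood at 10.0, 4.39, 3.68 and 5.70 CPM (−1.30, SE 0.30, and 0.61, SE 0.35). In these 3 classes both PS19 libraries lay below WT and TG_PS19. The same held in other excitatory neurons (6.54 to 18.7 CPM), mural cells (51.2 to 95.6 CPM) and endothelial cells (14.5 to 37.5 CPM). The endothelial PS19 values rest on 4 and 5 UMIs. Inhibitory neurons differed from this order, at 113, 31.1, 62.0 and 41.7 CPM, with WT highest and TG_PS19 between the PS19 libraries (−1.19, SE 0.34, and −0.18, SE 0.38). In Cajal-Retzius neurons, at 24.2, 25.6, 26.3 and 26.1 CPM from 5 to 9 UMIs, all libraries overlapped and WT was the lowest.

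Astrocyte transcripts were counted in the same nuclei. Summed astrocyte markers were at 602, 258, 225 and 429 CPM in oligodendrocytes and at 605, 221, 294 and 610 CPM in inhibitory neurons, with the PS19 libraries lowest. They were at 888, 966, 851 and 850 CPM in CA1 neurons and at 938, 931, 968 and 913 CPM in dentate granule neurons, where the PS19 libraries were not the lowest. Astrocytes were 24.8%, 14.0%, 14.9% and 19.9% of named nuclei. The part of astrocyte RNA in the Serpine2 counts of other classes was not tested.

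**Figure D4:**
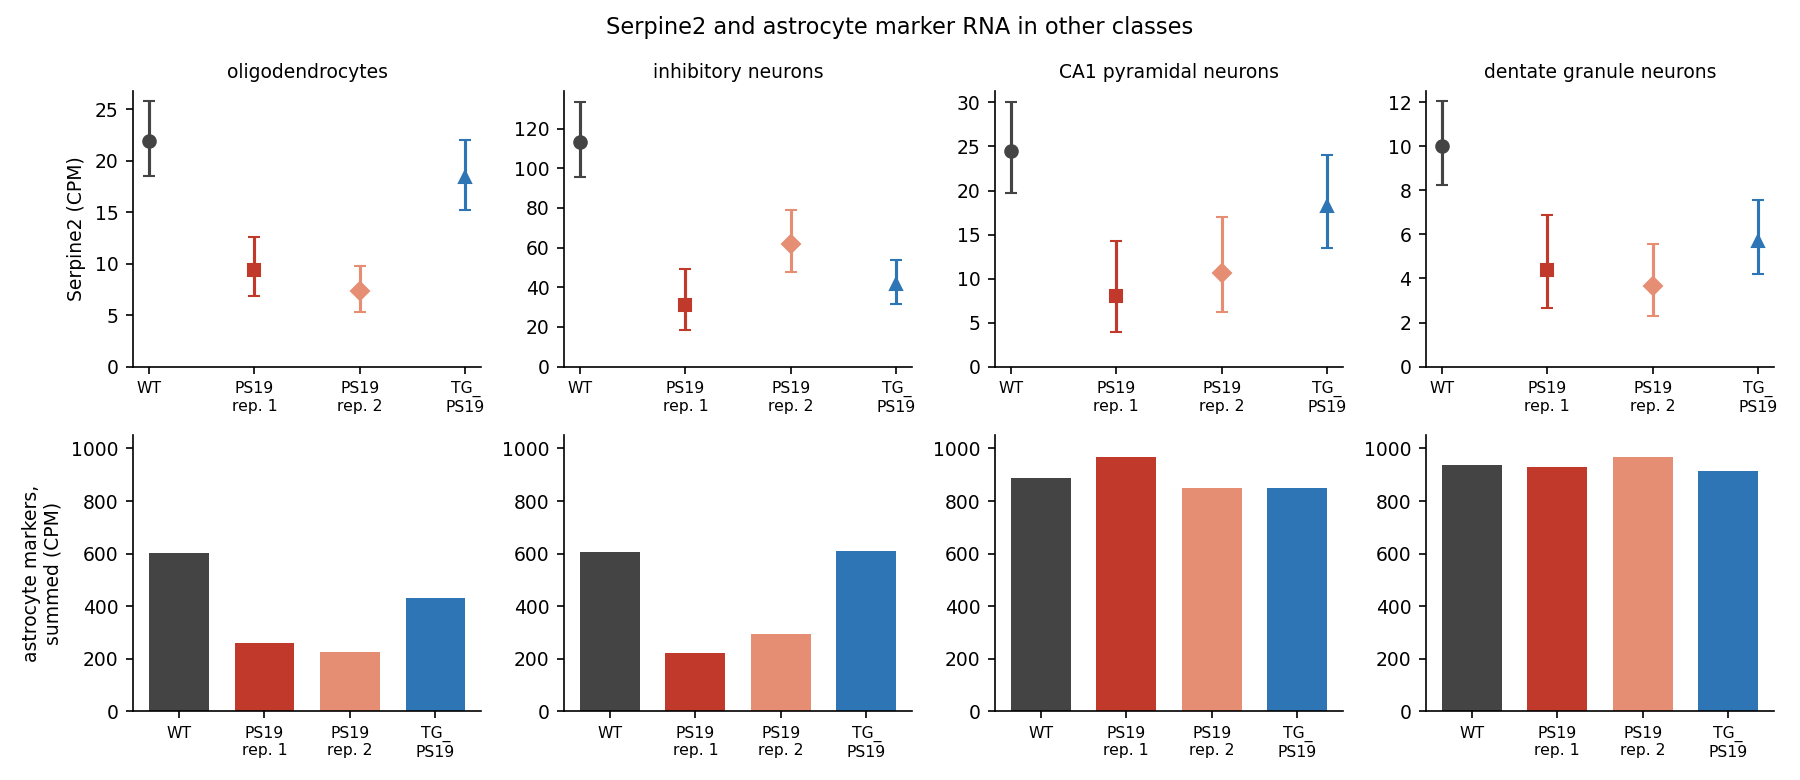
Top, Serpine2 level (CPM, with exact Poisson 95% intervals) in oligodendrocytes, inhibitory neurons, CA1 and dentate granule neurons by library; bottom, summed level of astrocyte markers (CPM) in the same classes. Serpine2 is lower in the PS19 libraries than in WT in all 4 classes, whereas astrocyte markers are lower in PS19 in oligodendrocytes and inhibitory neurons and not in the dentate granule neurons.

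Serpini1 (chr3:75557547-75643495, plus strand) encodes neuroserpin, an inhibitor of tissue activator that is known from neurons. Another annotated gene, Gm37672 (chr3:75619347-75623360), lies inside it on the same strand, so reads of the pair may have been split by the counting; Gm37672 held 181 UMIs. The class with the most Serpini1 per UMI was mural cells, with 240, 205, 255 and 170 UMIs and 566 CPM (497 to 643), 911 CPM (790 to 1044), 932 CPM (821 to 1054) and 706 CPM (604 to 821). The PS19 replicates overlapped each other, the TG_PS19 interval overlapped those of WT and PS19 replicate 1, and the WT interval lay below both PS19 intervals. The log2 difference was 0.71 (SE 0.20) for PS19 minus WT and −0.31 (SE 0.21) for TG_PS19 minus PS19. Mural markers summed to 16956, 17080, 16475 and 14872 CPM in that class.

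Among neurons Serpini1 was spread widely. CA1 neurons stood at 174, 158, 179 and 158 CPM and other excitatory neurons at 139, 120, 138 and 156 CPM. Inhibitory neurons stood at 160, 116, 278 and 213 CPM, where the PS19 replicates were the lowest and the highest library, and the log2 differences were 0.36 (SE 0.44) and 0.13 (SE 0.42). Dentate granule neurons had a lower level, 45.6, 45.1, 39.8 and 49.1 CPM, with log2 differences of −0.09 (SE 0.13), which turned to 0.0758 with thinned nuclei, and 0.32 (SE 0.14). The other excitatory class was uneven, with clusters at 309, 127 and 39.0 CPM. Astrocytes stood at 32.9, 19.6, 21.6 and 28.6 CPM (−0.69, SE 0.21, and 0.64, SE 0.22) and were thus lower in PS19. Dentate granule markers in astrocytes were at 663, 882, 927 and 677 CPM, higher in PS19, and markers of mural cells, the class with the most Serpini1, were at 318, 247, 244 and 215 CPM, highest in WT. The part of RNA from these classes in the astrocyte counts was not tested. In WT the dentate granule list was higher in oligodendrocytes (2699 CPM) than in astrocytes, so it may not read granule neuron RNA alone in glia. Microglia had a mean of 8.66 CPM.

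The other genes of the system were read from lists of 44 genes: further inhibitors and plasminogen, cell-surface partners, clearance receptors and substrates. Of these, 33 had enough counts in at least 1 class, which gave 231 pairs of gene and class. Several defining genes were not testable: plasminogen itself (Plg) had 12 UMIs, Serpinb2 had 5, Mmp9 had 42, Mmp3 had 2 and Serpina5 had 0. All p-values here are from edgeR's quasi-likelihood test with Benjamini-Hochberg adjustment over all genes of a class, and a call is an adjusted p under 0.05. Levels of these genes are CPM after TMM scaling of the class.

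Against WT, PS19 had 26 calls among the 231 pairs (11.3%), 6 higher and 20 lower, where 2.84% of all gene and class pairs were called (1.34% higher and 1.5% lower). The lists were chosen with earlier results of these data known. Here and below, the share over all pairs is not matched to the lists for level, and its difference from the list share was not tested. The median log2 difference over the pairs was −0.14, against 0.01 over all genes tested. Plasminogen, inhibitors and other activity regulators gave 4 calls of 27 pairs, of which 3 were vitronectin and 1 the plasmin inhibitor Serpinf2, which had under 5 CPM in every astrocyte library. Cell-surface partners gave 4 of 79, clearance receptors 5 of 62 and substrates 13 of 63. Substrates were mostly lower, with 11 of their 13 calls below WT. These calls repeat some genes over classes, such as the neuronal gene Grin2b in astrocytes, microglia and oligodendrocytes. Bdnf was likewise called in astrocytes, oligodendrocytes and dentate granule neurons. Pairs of the same gene are not independent, and the shares above include such repeats. DESeq2 called 4 of the pairs.

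In microglia 6 of 21 pathway genes were called between PS19 and WT (8.75% of all microglial genes were). As for Plaur, these sums join clusters whose shares differ between libraries (5.79%, 81.9%, 81.7% and 5.12% in the Ly86 cluster), and levels inside a cluster were not tested. Mrc2, a collagen receptor that binds the urokinase receptor complex, was higher at 45.0, 136, 96.7 and 76.0 CPM (log2 1.35, SE 0.27, adjusted p = 3.17e-05). Pdgfc, a growth factor precursor cut by tissue activator, was higher at 4, 14, 24 and 6 UMIs (2.66, SE 0.74, adjusted p = 0.00697). Tgfb1, a latent cytokine that plasmin can release, was lower at 269, 149, 206 and 235 CPM (−0.58, SE 0.18, adjusted p = 0.0175). Lrp1, the main clearance receptor of activator and inhibitor complexes, was lower at 578, 433, 420 and 557 CPM (−0.44, SE 0.15, adjusted p = 0.0492). Its chaperone Lrpap1 was lower at 114, 81.8, 52.8 and 68.5 CPM (−0.79, SE 0.25, adjusted p = 0.0203). Grin2b, an NMDA receptor subunit of neurons, was lower at 56.2, 20.9, 7.54 and 28.3 CPM (−2.05, SE 0.38, adjusted p = 4.70e-06), while markers of other brain cells in microglia summed to 1549, 1137, 1049 and 1527 CPM, also lowest in PS19. With doublets kept, the calls of Grin2b (−1.22), Lrp1 (−0.11), Lrpap1 (−0.60), Pdgfc (0.65) and Tgfb1 (−0.26) were lost. Over all other settings that give calls, Lrp1 and Tgfb1 were lost in 4 and Lrpap1 in 3. Grin2b and Pdgfc were lost in 2 and Mrc2 in 1.

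In astrocytes the plasminogen receptor subunit Anxa2 (annexin A2) stood at 6.26, 34.2, 23.4 and 5.13 CPM. PS19 exceeded WT by 2.18 on the log2 scale (SE 0.28, adjusted p = 1.37e-12), TG_PS19 differed from PS19 by −2.46 (SE 0.32, adjusted p = 2.95e-12), and the PS19 libraries did not overlap the others. The PS19 libraries also had the larger Gfap cluster given above. Its part in the Anxa2 difference, and in the other astrocyte differences given below, was not tested. The membrane protease Mmp14 was at 42.0, 24.4, 17.6 and 38.6 CPM, lower in PS19 (−1.03, SE 0.20, adjusted p = 1.18e-05) and higher again in TG_PS19 (0.90, SE 0.21, adjusted p = 0.000476). Bdnf, whose precursor plasmin can cut, was at 10.6, 27.5, 14.1 and 5.95 CPM, higher in PS19 (0.93, SE 0.27, adjusted p = 0.0128) and lower in TG_PS19 (−1.76, SE 0.33, adjusted p = 4.13e-06). Bdnf was at 101 CPM in WT dentate granule neurons, whose markers in astrocytes were also highest in PS19 (663, 882, 927 and 677 CPM). As given for Serpini1, that list may not read granule neuron RNA alone in glia. The part of granule neuron RNA in the Bdnf counts was not tested.

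Vitronectin (Vtn), a matrix protein bound by the urokinase receptor, was lower in PS19 than in WT in 3 classes. It was at 52.7, 23.2, 21.7 and 24.6 CPM in astrocytes (−1.24, SE 0.19, adjusted p = 7.97e-09), at 73.6, 36.2, 32.7 and 39.0 CPM in oligodendrocytes (−1.10, SE 0.14, adjusted p = 4.66e-12) and at 25.4, 12.2, 13.04 and 11.2 CPM in dentate granule neurons (−1.0005, SE 0.19, adjusted p = 3.38e-05). In each of these TG_PS19 was lower than WT as well (−1.10, −0.92 and −1.18). Vtn is also a mural marker. The other 6 mural markers summed to 264, 223, 222 and 193 CPM in astrocytes, to 17.0, 13.6, 11.5 and 11.1 CPM in oligodendrocytes and to 14.8, 17.1, 16.4 and 11.2 CPM in dentate granule neurons. The part of mural RNA in the Vtn counts was not tested.

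Counts of Grin2b, a gene of neurons, were lower in PS19 glia. In astrocytes it stood at 323, 179, 176 and 401 CPM (−0.86, SE 0.13, adjusted p = 1.84e-08, and for TG_PS19 against PS19 1.18, SE 0.13, adjusted p = 9.77e-16). In oligodendrocytes it stood at 35.4, 11.0, 12.9 and 26.2 CPM (−1.55, SE 0.19, adjusted p = 5.30e-14, and 1.12, SE 0.20, adjusted p = 2.70e-06). Dentate granule markers, which are counted in glia as well, were highest in PS19 in astrocytes, as given above. They stood at 2699, 2395, 2656 and 2857 CPM in oligodendrocytes, and may not read granule neuron RNA alone in glia. Markers of other neurons are not given for these classes, and the part of neuronal RNA in the Grin2b counts was not tested. In dentate granule neurons the integrin subunit Itgav, part of the vitronectin receptor, stood at 122, 78.9, 74.4 and 59.6 CPM. WT was the highest library, PS19 differed from it by −0.68 (SE 0.11, adjusted p = 2.60e-07) and TG_PS19 by −1.04 (SE 0.13, adjusted p = 1.12e-12), and TG_PS19 differed from PS19 by −0.36 (SE 0.12, adjusted p = 0.0407). Fibronectin (Fn1), a plasmin substrate, was lower in PS19 fibroblasts at 179, 87.3, 99.4 and 74.5 CPM (−0.93, SE 0.20, adjusted p = 0.000532).

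**Figure D5:**
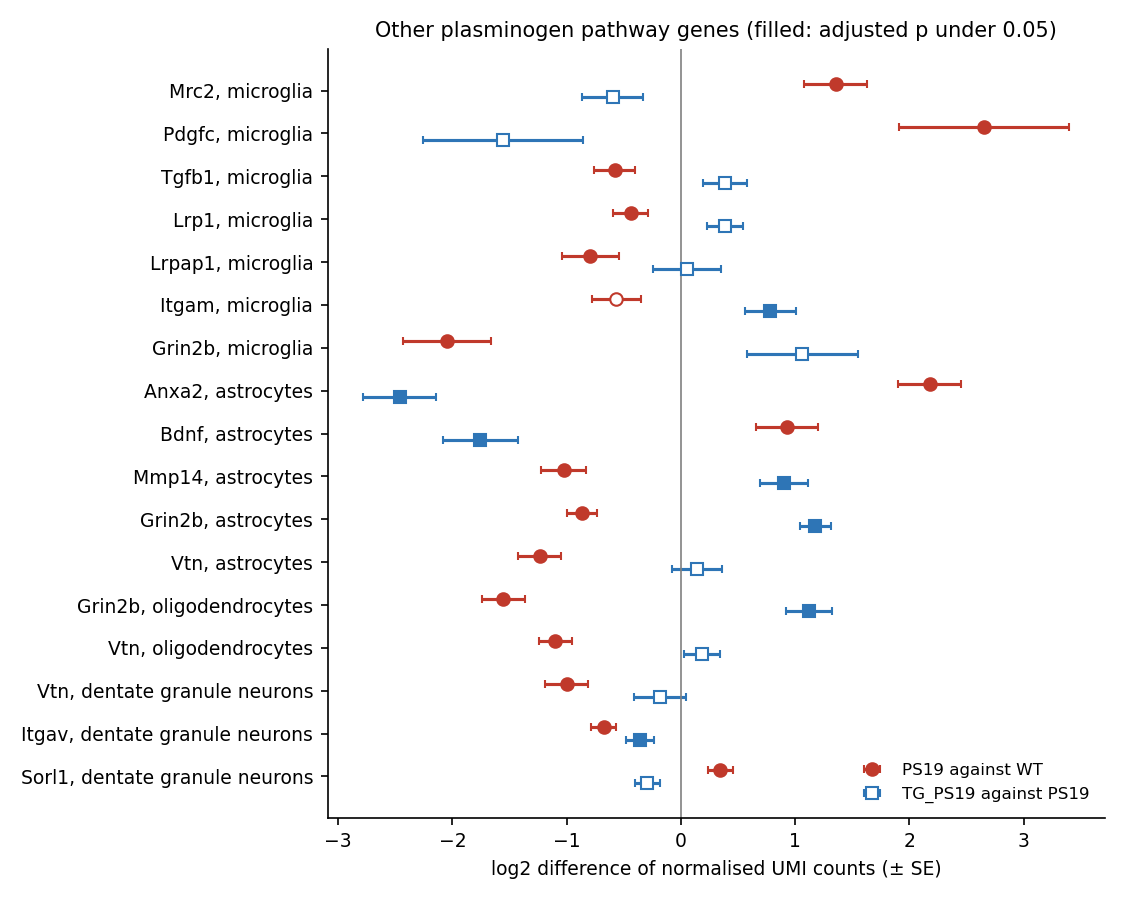
Log2 difference ± SE of 17 pairs of pathway gene and class for PS19 against WT and TG_PS19 against PS19, where filled points have an adjusted p under 0.05 (edgeR). Anxa2 in astrocytes is far to the right of 0 in the first comparison and far to the left in the second, whereas Vtn lies to the left in PS19 against WT in 3 classes.

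TG_PS19 against PS19 gave 11 calls among the 231 pairs (4.76%), 6 higher and 5 lower, where 4.89% of all pairs were called (3.16% higher and 1.73% lower), so the pathway was called no more often than genes at large. In microglia 1 of 21 was called where 9.2% of genes were: the integrin subunit Itgam (CD11b), a partner of the urokinase receptor, at 152, 125, 84.2 and 177 CPM (log2 0.78, SE 0.22, adjusted p = 0.00739). That call was lost in 4 of the 9 other settings that give calls, among them doublets kept (0.40). DESeq2 called 2 of the pairs. Outside the genes above, the receptor tyrosine kinase Egfr, a signalling partner of the urokinase receptor, was higher in TG_PS19 astrocytes at 311, 234, 260 and 377 CPM (0.61, SE 0.13, adjusted p = 0.000241). Vtn in fibroblasts was lower at 1048, 1533, 936 and 813 CPM (−0.60, SE 0.14, adjusted p = 0.00450), with the PS19 replicates far apart. Anxa2 in oligodendrocytes was lower at 3.94, 9.16, 7.04 and 3.09 CPM (−1.37, SE 0.41, adjusted p = 0.0124).

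TG_PS19 against WT also gave 11 calls (4.76%, against 2.19% of all pairs, 1.5% higher and 0.69% lower), all of them lower in TG_PS19, and DESeq2 called 1, Itgav in dentate granule neurons. Beside Itgav and Vtn, the calls were Bdnf in dentate granule neurons (101, 77.3, 73.4 and 65.1 CPM), Fn1 in fibroblasts, Bdnf in oligodendrocytes and Lrpap1 in 3 classes. For all of these both PS19 libraries lay below WT as well. Vtn was also called in CA1 neurons (22.7, 26.7, 6.74 and 8.70 CPM), where PS19 replicate 1 lay above WT. WT and TG_PS19 have 1 library each, so these calls take their spread from the PS19 pair.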

How the data were processed

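The authors deposited filtered UMI count matrices per library; per the submitters' processing notes these came from Cell Ranger 7.1.0 on GRCm38. Filters were at least 500 UMIs and 300 genes and under 5% mitochondrial UMIs (removing 1, 4, 2 and 0 nuclei). Simulated doublets marked 1303, 172, 194 and 756 nuclei (10.2%, 3.70%, 3.94% and 7.78% of barcodes), which were removed. The rate was set by the number of barcodes, so removal was unequal and cannot be told apart from genotype. With doublets kept, the microglial class held 756, 287, 325 and 508 nuclei instead of 587, 254, 284 and 410. Nuclei were clustered (2000 variable genes, 30 principal components, 15 neighbours, Leiden resolution 1.0; Python 3.11.15, numpy 2.4.6, scipy 1.17.1, leidenalg 0.10.2). Clusters were named from 18 marker lists where at least 3 markers were raised, unless another class had more of its markers among the 10 leading genes (as in 48 nuclei led by Mrc1 and Cd74) or depth was low with no own marker among them; the minimum of 3 was set after the clusters were seen, and the Sfta3-ps and Hpse2 cluster was kept out of all classes by judgement. A class needed 50 nuclei in every library. Summed counts per class were fitted over all 4 libraries in edgeR 4.0.16 (R 4.3.3; TMM scaling, quasi-likelihood), with DESeq2 1.42.0 as an alternative. The members and gene lists were chosen with earlier results of these data known. Genes named are the 5 members; pathway genes called in microglia, called with opposite signs in both comparisons with PS19, or among the 10 smallest adjusted p of a comparison; and the genes most like a member (at least 100 UMIs, or 50 in microglia for Plaur). Untestable genes were added for their role, and 1 pathway gene is not reported here. On counts simulated for PS19 against WT, 162 of 197 4-fold changes were recovered in microglia (82.2%, 10390 genes), with 8 false calls. In oligodendrocytes 187 of 200 were recovered (93.5%, 15980 genes), with 11 false calls. The simulation gave all genes the same dispersion, had no library effects and changed only genes above a count minimum. It therefore does not show how far the real calls hold. The PS19 pair differed beyond sampling noise in every class (chi-square per degree of freedom 1.54 to 2.93).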

Additional observations from a re-analysis of the deposited data

Results flagged for a closer look

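Some members stood higher in both PS19 libraries than in WT in 1 class and lower in another. Plat was 0.78 higher on the log2 scale in endothelial cells and differed by −0.25 in oligodendrocytes. Serpine2 was 0.35 higher in microglia and differed by −1.46 in CA1 pyramidal neurons. Serpini1 was 0.71 higher in mural cells and differed by −0.69 in astrocytes. The differences between these classes were not tested.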

How the results depend on the processing

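Settings other than the one reported were other scalings, no count filter, doublets kept, finer clusters, TG_PS19 nuclei with Y-linked genes only, thinning to 1000 UMIs, leaving out a PS19 replicate, and DESeq2 for the pathway genes. The log2 difference of Plaur in microglia, PS19 minus WT, was 4.86 with doublets kept, 5.08 thinned and 4.58 to 4.79 when a PS19 replicate was left out. TG_PS19 minus PS19 was −5.22 with doublets kept and −5.76 to −5.55 when a replicate was left out; the −7.73 thinned and −8.72 with Y-linked nuclei only come from TG_PS19 counts of 0, depend on the prior count and are no bounds. Serpine2 in astrocytes, PS19 minus WT, was −0.35 with library totals, −0.42 without the filter, −0.41 thinned and −0.39 to −0.37 with a replicate left out; TG_PS19 minus PS19 was 0.0759, 0.34 thinned, 0.19 with doublets kept and 0.24 to 0.26. Library totals shifted the median of all astrocyte genes by −0.18 in that comparison. Serpini1 in dentate granule neurons, PS19 minus WT, reversed to 0.0758 thinned (−0.16 to −0.01 with a replicate left out); TG_PS19 minus PS19 was 0.58 with Y-linked nuclei only, 0.18 thinned and 0.23 to 0.39. Plat in oligodendrocytes ranged from −0.44 to −0.05 (without PS19 replicate 2) and from −0.73 to −0.35. Of 26 other member differences 23 never reversed. Those that did were Plaur in endothelial cells, PS19 minus WT (0.0428 with doublets kept; −0.49 and 0.39 without PS19 replicate 1 or 2), Plat in mural cells, PS19 minus WT (−0.0941 thinned; −0.22 and 0.41 without replicate 1 or 2), and Serpine2 in inhibitory neurons, TG_PS19 minus PS19 (0.0461 with Y-linked nuclei only; −0.52 and 0.51 without replicate 1 or 2). Pathway calls numbered 26 for PS19 against WT but 13 thinned and 4 in DESeq2. For TG_PS19 against PS19 they numbered 11 but 18 with doublets kept, 7 thinned and 2 in DESeq2; library totals gave 15, with 6 higher instead of 6 of 11. For TG_PS19 against WT they numbered 11 but 7 with Y-linked nuclei only, 6 thinned and 1 in DESeq2. A robust prior, chosen after seeing the data, gave 26, 13 and 13. Of 48 single calls 7 held under all 9 settings that give calls, DESeq2 and the robust prior included, 4 more held but had no adjusted p in DESeq2 or after thinning, and 0 reversed; the causes were not tested beyond the lower depth of thinned nuclei. Leaving out a PS19 replicate leaves no residual degree of freedom and gives no calls. No paired analysis was possible because only PS19 has 2 replicates, so the groups share fewer than 2 replicate numbers.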

Other observations

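Across 48 sums of class and library, whose points share libraries and depth, the genes with levels most like each member were the following, described by Pearson's r over log2 levels. Plaur was most like Slfn5 (0.88), Gm12185, Sp100, Ucp2 and Casp8 (0.86). Plau was most like Ptpn6 (0.89), Pilra, Runx1, Gm10790 and Arhgap45 (0.86). Plat was most like Mprip (0.90), Tgfbr3, Sptbn1, Tle1 and Adgra2 (0.79). Serpine2 was most like Gsap (0.84), Cklf, Usp24, Arhgef40 and Etv4 (0.82). Serpini1 was most like the gene inside it, Gm37672 (0.90), and then Lin7a (0.85), Gucy1b1, Pcdh19 and Trpc4 (0.78).

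Some members were high in clusters that entered no comparison. The WT cluster of 282 nuclei without counterpart in other libraries held Plat at 121 CPM (92 UMIs). A cluster of 34 nuclei led by the smooth muscle genes Myh11 and Acta2 held Serpini1 at 505 CPM.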
